A study of Homo sapiens with 12 samples.

Results

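The 10 genes described here encode the classical cadherins CDH1, CDH2, CDH3, CDH4 and CDH11 and the catenins CTNNB1, CTNNA1, CTNNA2, CTNND1 and CTNND2. They were chosen by symbol among the 48114 genes of the deposited tables, and each symbol matched 1 gene. RNA was sequenced in 12 libraries of pancreatic ductal adenocarcinoma (PDAC) cell lines. PANC-1, which the study treats as basal-like, received a control siRNA (siCtrl) or siRNAs against QKI (siQKI) or RBFOX2 (siRBFOX2) for 48 h. HPAF-II, which the study treats as classical, received the control siRNA only. Each of the 4 groups has 3 libraries, described as biological replicates, and each subtype is represented by 1 line. The siRNAs against QKI and RBFOX2 were used at 40 nM, and the knockdowns were partial.

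QKI and RBFOX2 are RNA-binding proteins that regulate splicing. In siQKI libraries 19.7% of the mean siCtrl level of QKI was left (normalized counts of 4630, 5453 and 5020 against 25909, 24539 and 26150). In siRBFOX2 libraries 13.6% of the mean RBFOX2 level was left (2403, 2171 and 1712 against 15355, 15508 and 15424). RBFOX2 was also lower in siQKI libraries, at 12629, 12778 and 12520 (log2 fold change -0.29, SE 0.09, limma adjusted p = 0.0207). A normalized count is a gene's count divided by a size factor of the library. The depth in sequenced fragments is unknown, because 82.1% to 84.8% of the low values in each library were multiples of 3 of the smallest step, and precision was therefore taken from the replicates. The epithelial markers KRT8, KRT18, KRT19, KRT7 and EPCAM were detected in every group (summed level 2129 to 2706 in PANC-1 libraries and 10736 to 11688 in those of HPAF-II, rescaled to a library total of 1000000). KRT8, KRT18 and KRT19 carried the PANC-1 sum. EPCAM averaged 13.8 in siCtrl against 423 in HPAF-II, and KRT7 4.16 against 866. Endothelial and acinar markers summed to at most 0.877 on that scale in any library. The 5 fibroblast markers summed to 12.1 to 13.9 in siCtrl, 25.9 to 29.3 in siQKI and 15.4 to 23.0 in siRBFOX2 libraries. COL1A1 carried this sum (11.9, 24.6 and 16.8 on average), PDGFRB ranged from 0.530 to 0.853, 1.796 to 2.09 and 0.787 to 1.99, COL3A1 stayed low (0.364, 0.518 and 0.434 on average), DCN was at 0 in all 3 groups and COL1A2 at or near 0. In HPAF-II libraries the 5 fibroblast markers summed to 18.1 to 22.4, mostly through COL1A1 (18.5 on average). Of the 4 leukocyte markers CD68, which many cells express in lysosomes, carried the sum, and neuroendocrine markers reached 6.91 at most through SYP.

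Classical cadherins are calcium-dependent adhesion receptors. Their extracellular domains bind cadherins of the neighboring cell, and their tails bind p120-catenin (CTNND1), which holds the receptor at the membrane, and β-catenin (CTNNB1), which recruits α-catenin (CTNNA1) and through it actin. E-cadherin (CDH1) is the epithelial member and N-cadherin (CDH2) the one gained in mesenchymal states, while β-catenin has a separate role as the transcriptional effector of Wnt signaling. In pancreatic cancer the balance of CDH1 and CDH2 is a common measure of epithelial or mesenchymal state.

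The catenin CTNND1 (chr11:57753243-57819540, hg38) holds the cassette exon that the study followed by RT-PCR. The exon lies at chr11:57815915-57816001 on the plus strand, is coding in GENCODE v29 and has 87 bases. It is printed below in lower case with the designed primers, since it carries the event for which this member was assayed. The primers predict a product of 257 bases on the 12 annotated transcripts with the exon that hold both sites. They predict 170 bases on 17 transcripts without it and 167 bases on 1. The deposited gene-level counts do not separate these transcripts. No match to ACTAA followed by C or T (the short form of the QKI motif) or to TGCATG (the RBFOX motif) lies inside the exon. The flanking introns, which the study included in its motif search, were not searched here.
CTNND1 exon: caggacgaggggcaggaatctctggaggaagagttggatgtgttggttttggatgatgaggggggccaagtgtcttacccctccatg
CTNND1 forward primer: ggatcgatcgggggatctagg
CTNND1 reverse primer: tggcacaatagtccagcgaag

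The same motifs were searched on the sense strand of the 3′ untranslated region of 1 GENCODE v29 transcript per gene, the one with the longest coding sequence. The background is all genes with a 3′ untranslated region of 80% to 125% of the member's length. CTNNA1 holds 3 matches to the QKI letters in 945 bases, of which 2 overlap by 2 bases, and 0.655% of 2289 genes of like length hold as many or more. CTNNB1 holds 1 match in 561 bases (14.2% of 2159 genes hold at least 1), CDH1 holds 1 in 2042 bases (49.1% of 2298) and CTNND1 holds 1 in 2870 bases (61.7% of 2002). CDH2 holds 1 TGCATG in 1187 bases (28.97% of 2309 genes) and CDH3 holds neither motif in 1895 bases. CDH11 holds 2 matches to the QKI letters in 3850 bases (39.0% of 1496 genes hold as many). A match is a description of the letters and not a measured binding site. The windows of 30 bases around the matches of members that passed a test below are shown 5′ to 3′, with the motif in capitals. The 2 overlapping matches of CTNNA1 share 1 printed window, in which only the first is fully in capitals.
CDH1, chr16:68834107-68834136, plus strand: ccactacgcatgACTAATtttttaaatatt
CDH2, chr18:27951340-27951369, minus strand: attcaggtttttTGCATGtttatatctttc
CTNNB1, chr3:41239738-41239767, plus strand: agtgcctgacacACTAACcaagctgagttt
CTNNA1, chr5:138934652-138934681, plus strand: attgttataattACTAATgtacgctgctgc
CTNNA1, chr5:138934979-138935008, plus strand: aatgttttttacACTAACtaacttttccca
CTNND1, chr11:57818764-57818793, plus strand: acatttgacaaaACTAACcttgaataaggc

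Of the 10 members, 6 matched a RefSeq promoter sequence (GRCh38.p14, 250 bases before to 50 after a start site). CDH1, CDH3, CDH11 and CTNND1 did not, so their promoters were not searched. CDH2 and CTNNB1 are shown because both rose in siQKI libraries while CDH2 was listed at 0 in HPAF-II and CTNNB1 was not. Matches to GGGCGG, the core of the GC box, on either strand are in capitals, and 45.0% of all 35116 promoters hold at least 1. The CTNNB1 window holds 3 and the CDH2 window 1. A second CDH2 window at chr18:28036592-28036891 holds none and is not shown. The windows of CTNNA1, also not shown, hold 9, 4, 0 and 0. Neither printed window holds CACCTG on either strand, the E-box letters that the repressors of CDH1 are known to bind, which 20.6% of all promoters hold. A CDH4 window that is not shown holds 1. These letters were not searched in CDH1 itself.
CDH2, chr18:28177081-28177380, minus strand: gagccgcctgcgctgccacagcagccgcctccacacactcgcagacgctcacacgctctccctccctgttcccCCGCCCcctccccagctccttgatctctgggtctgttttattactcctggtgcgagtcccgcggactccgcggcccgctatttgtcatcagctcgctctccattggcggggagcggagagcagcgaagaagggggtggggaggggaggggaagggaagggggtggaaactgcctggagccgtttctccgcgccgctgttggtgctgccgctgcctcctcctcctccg
CTNNB1, chr3:41199255-41199554, plus strand: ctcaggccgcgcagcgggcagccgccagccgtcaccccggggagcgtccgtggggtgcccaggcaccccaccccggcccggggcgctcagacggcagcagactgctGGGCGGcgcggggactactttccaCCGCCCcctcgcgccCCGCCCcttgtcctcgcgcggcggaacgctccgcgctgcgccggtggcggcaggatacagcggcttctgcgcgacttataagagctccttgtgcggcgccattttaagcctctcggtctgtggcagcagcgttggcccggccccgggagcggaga

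To compare levels between members, values were rescaled as above and divided by the exon length of GENCODE v29 in kb, which may differ from the gene models used for counting. Of the 5 cadherin members CDH2 was highest in siCtrl PANC-1 cells, with 8.76 ± 0.362 per kb (SD, n = 3). CDH1 followed at 0.576 ± 0.0133, then CDH3 at 0.280 ± 0.0958 and CDH11 at 0.196 ± 0.0251, and the last 2 differed by less than the SD of CDH3. CDH4 was at or near 0. Among the catenins CTNNA1 stood at 60.4 ± 1.22 per kb, CTNND1 at 26.2 ± 0.197 and CTNNB1 at 22.6 ± 1.07, and the 3 did not overlap with these lengths. The length joins all annotated exons and was 7.857 kb for CTNNB1, against 3127 bases in the transcript used for the motif search. The order of CTNND1 and CTNNB1, the catenin shares and the catenin sum therefore depend on the length used. CTNNA2, the neural α-catenin, and CTNND2, the neural p120 relative, were at or near 0. With these exon lengths the 5 catenins summed to 109 ± 2.07 per kb and the 5 cadherins to 9.81 ± 0.256. In each library the members can be read as shares of their sum over the 5 cadherins, which no scaling between libraries affects. CDH2 made up 87.9% to 90.6% of this sum in siCtrl, 81.3% to 84.3% in siQKI and 86.3% to 88.2% in siRBFOX2 libraries. CDH1 made up 5.62% to 6.04%, 10.7% to 12.9% and 6.64% to 7.57% in the same groups. The share of CDH1 thus did not overlap between any of the 3 groups, and the share of CDH2 in siQKI libraries lay below all others.

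**Figure D1:**
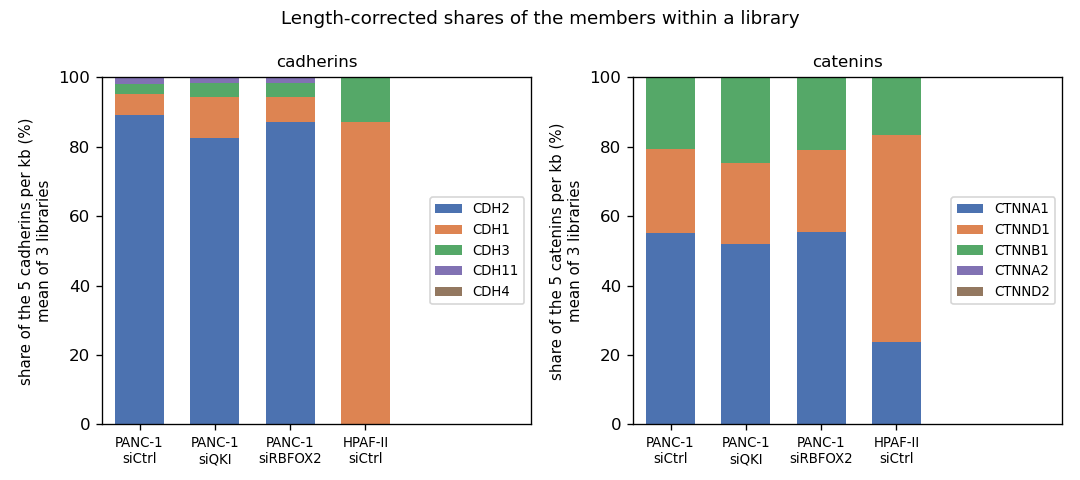
Stacked bars give the mean share of each member among the 5 cadherins (left) or the 5 catenins (right) in percent, per kb of exon, for the 3 PANC-1 groups and HPAF-II (3 libraries each). CDH2 fills most of the cadherin bar in PANC-1 (89.2% in siCtrl) and is absent from the HPAF-II bar, where CDH1 takes 87.0%. Among catenins the largest share is CTNNA1 in PANC-1 (55.3% in siCtrl) and CTNND1 in HPAF-II (59.9%). The catenin shares depend on the exon length used for CTNNB1.

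The comparison of siQKI with siCtrl asks how the adhesion genes respond to loss of QKI. Of the 10 members, 7 had a mean of at least 10 over the 9 PANC-1 libraries and were tested. CDH1, CDH2, CDH3 and CTNNB1 rose and CTNNA1 fell, while CDH11 and CTNND1 did not pass. Over all 22544 genes tested, 14.9% were called higher and 18.1% lower at an adjusted p under 0.05. The libraries of the 2 groups did not overlap for 6 of the 7 members, against 44.7% of all genes tested. Since these are bulk samples, more RNA per cell and more cells that express a gene cannot be told apart.

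CDH1 (chr16:68737290-68835541) had normalized counts of 995, 997 and 968 in siCtrl and of 3026, 2275 and 2528 in siQKI libraries. Every siQKI library was above every siCtrl library by more than the spread within either group. The log2 fold change was 1.39 (SE 0.11, 2.63-fold, limma adjusted p = 1.54e-07). CDH3 (chr16:68644836-68700292), the placental cadherin and also an epithelial member, had 428, 678 and 351 in siCtrl and 961, 765 and 816 in siQKI. The groups did not overlap, but 1 siCtrl library lay close to the siQKI range. The log2 fold change was 0.85 (SE 0.23, adjusted p = 0.00954 by limma), and without siCtrl replicate 3 it was 0.65 with an adjusted p of 0.0566. The call was also lost without the mean-variance trend of the fit (adjusted p = 0.0702).

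CDH2 (chr18:27950966-28177444) had 13288, 12970 and 13962 in siCtrl and 17005, 16073 and 15275 in siQKI libraries. The mesenchymal cadherin was thus higher in all 3 siQKI libraries, by a much smaller factor than CDH1 (log2 fold change 0.26, SE 0.05, 1.202-fold, limma adjusted p = 0.000513). CDH11 (chr16:64943753-65122092), a cadherin of mesenchymal cells, had 529, 476 and 418 in siCtrl and 526, 437 and 623 in siQKI, and the groups overlapped. Its log2 fold change of 0.15 had a 95% interval from -0.35 to 0.65 (limma adjusted p = 0.688). Of the fibroblast markers COL1A1 and PDGFRB were higher in the same siQKI libraries, while DCN was at 0 and COL1A2 at or near 0. In HPAF-II, where CDH2 was listed at 0, COL1A1 averaged 18.5 on the rescaled scale. A part of these markers in the rise of CDH2 was not tested.

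CTNNB1 (chr3:41194910-41240443) had 57546, 61766 and 64441 in siCtrl and 71306, 71949 and 70693 in siQKI libraries. All 3 siQKI libraries were higher and lay closer together than the controls. The log2 fold change was 0.22 (SE 0.04, 1.17-fold, limma adjusted p = 0.000942). CTNNA1 (chr5:138753420-138935034) had 78393, 82741 and 83123 in siCtrl and 75484, 75398 and 73042 in siQKI. It was lower in all 3 siQKI libraries, but the lowest siCtrl library was close to them. The log2 fold change was -0.13 (SE 0.04, limma adjusted p = 0.0182). This call did not hold with upper-quartile rescaling (-0.06, adjusted p = 0.197), without the mean-variance trend (adjusted p = 0.0831), or without siCtrl replicate 2 (adjusted p = 0.0689), siCtrl replicate 3 (0.0727) or siQKI replicate 3 (0.0826). CTNND1 had 62570, 63715 and 62818 in siCtrl and 60548, 59032 and 58812 in siQKI, which did not overlap. Its log2 fold change of -0.08 (SE 0.04) did not pass the test (limma adjusted p = 0.0826).

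**Figure D2:**
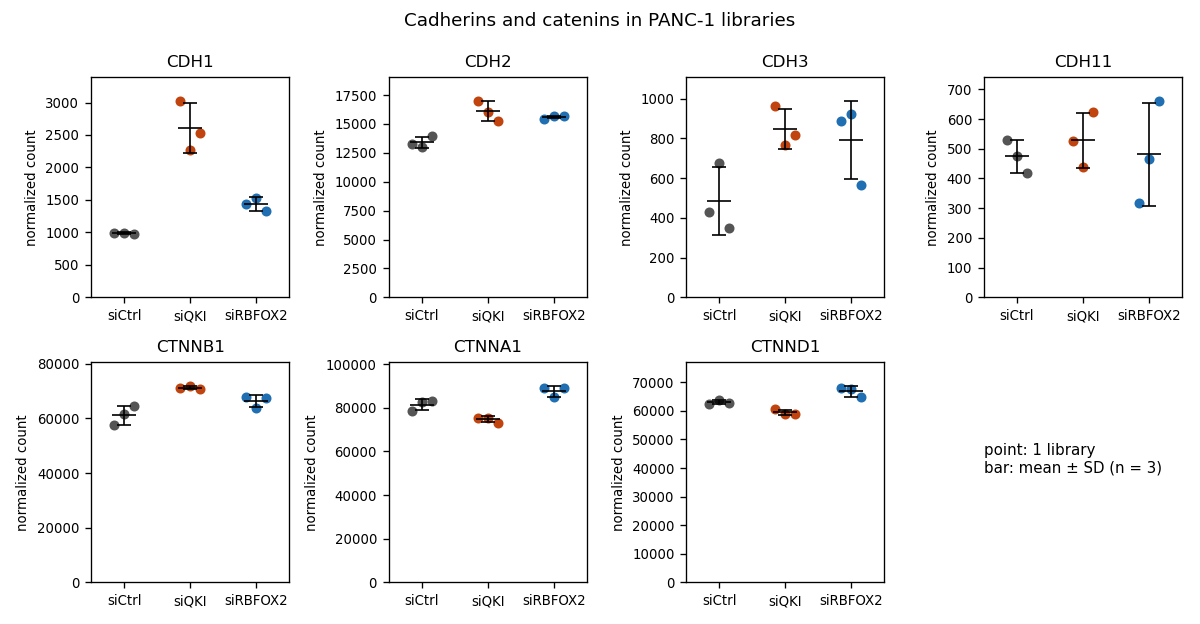
Each panel shows 1 of the 7 tested members in PANC-1, with the normalized count on the vertical axis (linear, from 0), 1 point per library and a bar for the mean ± SD of 3 libraries in siCtrl, siQKI and siRBFOX2. CDH1 steps from 968 to 997 in siCtrl to 2275 to 3026 in siQKI with siRBFOX2 in between (1322 to 1535), while the catenins move by small amounts and CDH11 overlaps between all groups.

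The members under the filter had few counts. CDH4 (chr20:61252261-61940617), the retinal cadherin, was at 0, 0 and 8.05 in siCtrl, 17.1, 6.98 and 0 in siQKI and 0 in all siRBFOX2 libraries. CTNNA2 (chr2:79744381-80648861) was at 20.1, 0 and 6.04 in siCtrl, 12.5, 0 and 0 in siQKI and 0, 0 and 2.78 in siRBFOX2. CTNND2 (chr5:10971836-11904446) was listed at 0 in all siCtrl and siRBFOX2 libraries and had 6.84, 16.6 and 15.7 in siQKI. Among PANC-1 libraries CTNND2 was thus above 0 in siQKI only, at a level of 0.00689 ± 0.00289 per kb, and CDH4 and CTNNA2 overlapped between siQKI and siCtrl. A fit without the filter gave CTNND2 a limma adjusted p of 0.00336 against siCtrl, and genes under the filter are not among the members counted. Within this gene only the siQKI libraries gave any spread, since the other groups were all at 0. The p-value therefore does not measure replicate spread in siCtrl.

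For siRBFOX2 against siCtrl, CDH1, CDH2, CDH3 and CTNNA1 passed the threshold, all upward. Over all genes 12% were called higher and 14.5% lower. The libraries did not overlap for 4 of the 7 members, against 37.9% of all genes, so the count of members apart was not far from that background. CDH1 had 1438, 1535 and 1322, each above all siCtrl libraries. Its log2 fold change was 0.53 (SE 0.11, 1.45-fold, limma adjusted p = 0.00177). CDH2 had 15460, 15659 and 15692, also above all siCtrl libraries (log2 fold change 0.22, SE 0.05, limma adjusted p = 0.00319). CDH3 had 889, 923 and 564, and the lowest of these lay within the siCtrl range. Its log2 fold change of 0.73 (SE 0.23, limma adjusted p = 0.0288) lost the call when any of 4 libraries was left out: siCtrl replicate 1 (0.66, adjusted p = 0.0859), siCtrl replicate 3 (0.52, adjusted p = 0.141), siRBFOX2 replicate 1 (0.63, adjusted p = 0.107) and siRBFOX2 replicate 2 (0.60, adjusted p = 0.119). It also lost the call without the mean-variance trend (adjusted p = 0.129) and with only siRBFOX2 and siCtrl in the fit (adjusted p = 0.0523).

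CTNNA1 had 89079, 84780 and 88999 in siRBFOX2 libraries. They lay above all siCtrl libraries, and the log2 fold change was 0.11 (SE 0.04). Its limma adjusted p of 0.04997 was at the edge of the threshold and was above it under 13 of 17 alternatives, with values up to 0.187 (without siCtrl replicate 1). Leaving out any 1 library other than siRBFOX2 replicate 2 ended this call. CTNNB1 had 67898, 63829 and 67305, and its lowest library overlapped siCtrl (log2 fold change 0.12, SE 0.04, limma adjusted p = 0.0607). CTNND1 had 68168, 67779 and 64740, all above siCtrl (log2 fold change 0.09, SE 0.04, limma adjusted p = 0.0917). With upper-quartile rescaling CTNNB1 and CTNND1 passed (adjusted p = 0.0128 and 0.0207). CTNNB1 also passed without siCtrl replicate 3 (0.0254) or siRBFOX2 replicate 2 (0.0357), and CTNND1 without siRBFOX2 replicate 3 (0.0441). CDH11 had 317, 465 and 661, a range that covered all siCtrl libraries. Its log2 fold change was -0.04, with a 95% interval from -0.54 to 0.46 (limma adjusted p = 0.934).

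Both knockdowns were set against the same siCtrl libraries, so the direct contrast of siQKI with siRBFOX2 tests whether the responses differed. Over all genes 9.93% were called higher and 11.6% lower in siQKI, and 35.2% did not overlap. Among the 7 members 3 were called and 4 did not overlap. CDH1 was higher in siQKI by 0.86 on the log2 scale (SE 0.11, 1.81-fold, limma adjusted p = 3.90e-05). CTNNA1 was lower in siQKI by a log2 difference of -0.23 (SE 0.04, limma adjusted p = 0.000373), and CTNND1 by -0.17 (SE 0.04, limma adjusted p = 0.00260). These 3 calls held under all 17 alternatives fitted for each gene. For CDH2 the difference was 0.05, with a 95% interval from -0.06 to 0.15, and for CDH3 it was 0.12, with an interval from -0.37 to 0.62. For CTNNB1 it was 0.10, with an interval from 0.01 to 0.20 and a limma adjusted p of 0.105, and it passed with upper-quartile rescaling (0.14, adjusted p = 0.0241). For CDH11 it was 0.18, with an interval from -0.31 to 0.68.

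**Figure D3:**
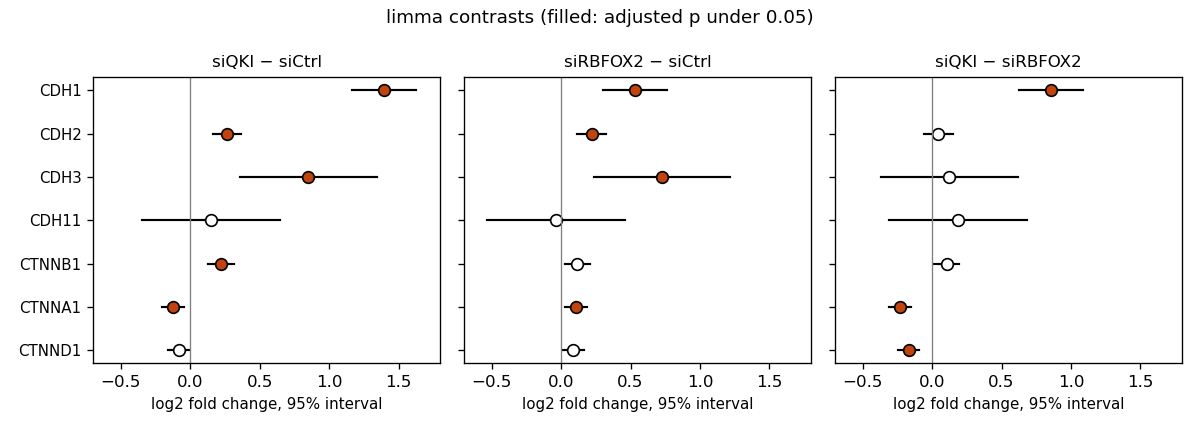
Log2 fold changes of the 7 tested members (horizontal axis) with their 95% intervals in 3 limma contrasts of PANC-1 groups, filled where the adjusted p is under 0.05 over all genes. CDH1 is to the right of 0 in every panel (1.39, 0.53 and 0.86), and CTNNA1 is to the left of 0 in siQKI against siCtrl (-0.13) but to the right in siRBFOX2 against siCtrl (0.11).

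Ratios of 2 members within a library do not depend on the scaling between libraries. The log2 ratio of CDH1 to CDH2 counts was -3.74, -3.70 and -3.85 in siCtrl, -2.49, -2.82 and -2.59 in siQKI and -3.43, -3.35 and -3.57 in siRBFOX2. It was highest in siQKI and the 3 groups did not overlap. The ratio was 1.13 higher in siQKI than in siCtrl (SE 0.11) and 0.31 higher in siRBFOX2 (SE 0.08). Each had a two-sided exact permutation p of 0.1, the smallest that 3 against 3 libraries allow. The log2 ratio of CTNNB1 to CTNNA1 was -0.45, -0.42 and -0.37 in siCtrl, -0.08, -0.07 and -0.05 in siQKI and -0.39, -0.41 and -0.40 in siRBFOX2. β-catenin relative to α-catenin RNA was thus higher in all siQKI libraries than in any other PANC-1 library. The difference from siCtrl was 0.35 (SE 0.03, exact permutation p = 0.1) in siQKI and 0.01 (SE 0.02, exact permutation p = 0.7) in siRBFOX2. CTNND1 relative to CTNNA1 overlapped between siQKI and siCtrl (difference 0.04, SE 0.03, exact permutation p = 0.2). These p-values are among 15 ratio comparisons and are not adjusted, since none of them could pass.

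The other genes of the pathway were taken from 9 lists with 71 genes, of which 61 were tested. In siQKI against siCtrl 11 were called higher and 20 lower, which is to be read against 14.9% and 18.1% of all genes, and their median log2 fold change was -0.05, against 0.03 for all genes tested. Of the 5 tested repressors of CDH1 transcription, 3 fell. ZEB2 (log2 fold change 0.90, SE 0.35, limma adjusted p = 0.0645) and TCF3 (0.10, SE 0.04, limma adjusted p = 0.0655) were higher but did not pass. Their siQKI and siCtrl libraries did not overlap. Without siCtrl replicate 1, 1 of the 5 repressors was called higher. SNAI1 had a log2 fold change of -0.52 (SE 0.08, limma adjusted p = 7.39e-05). SNAI2 went from 241, 188 and 224 to 45.6, 147 and 83.9 normalized counts (log2 fold change -1.38, SE 0.38, limma adjusted p = 0.0107). ZEB1 had 9706, 9356 and 10575 in siCtrl and 7836, 8462 and 8133 in siQKI (log2 fold change -0.28, SE 0.06, limma adjusted p = 0.00249). With upper-quartile rescaling the same 3 passed downward and TCF3 passed upward. Among 4 tested epithelial activators ESRP2, a splicing factor of epithelial cells, rose (log2 fold change 0.44, SE 0.06, limma adjusted p = 4.20e-05). ESRP2 overlaps another expressed gene, and whether the counting used strand is not given in the sources used here, so its value is uncertain.

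The genes that tie the junction to actin were called lower more often than higher. Of 10 tested, 7 fell and 1 rose in siQKI (18.1% and 14.9% of all genes did), and 7 fell and 1 rose in siRBFOX2 (14.5% and 12% of all genes), with list medians of -0.26 and -0.15 (-0.19 and -0.11 with upper-quartile rescaling, where 2 and 1 rose and 7 and 6 fell). ACTN4, an actin crosslinker, had log2 fold changes of -0.48 (SE 0.04) and -0.15 (SE 0.04). VASP, which promotes actin filament growth, had -0.37 (SE 0.04) and -0.32 (SE 0.04). AJUBA, a LIM protein of the junction, was the gene that rose in both, by 0.54 (SE 0.04) and 0.44 (SE 0.04), and it overlaps another expressed gene. With upper-quartile rescaling the share of higher calls among all called genes moved from 45.2% to 58.0% in siQKI against siCtrl, so small downward calls depend on the scaling.

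Of 9 tested trafficking and cleavage genes 4 rose and 2 fell in siQKI, of 6 other catenins and relatives 1 rose and 3 fell, of 5 nectins and afadin 1 rose and 1 fell, and of 6 genes of β-catenin turnover 2 fell, and in lists this short such counts are few calls beside the 14.9% higher and 18.1% lower over all genes. JUP (γ-catenin), which can take the place of β-catenin at junctions, rose in siQKI libraries (34466, 38360 and 34271 in siCtrl, 44374, 41993 and 43051 in siQKI, log2 fold change 0.27, SE 0.06, limma adjusted p = 0.00118). CTNNAL1, an α-catenin relative, fell in siQKI (-0.36, SE 0.04) and siRBFOX2 (-0.22, SE 0.04). Of 5 tested other cadherins, 2 rose in siQKI. CDH18, a cadherin of neural tissue, went from 774, 755 and 751 to 1405, 1497 and 1702 (log2 fold change 1.01, SE 0.20, limma adjusted p = 0.000978), and it was also higher than in siRBFOX2 (1.08, SE 0.20). PIP5K1C, a lipid kinase that acts in cadherin trafficking, rose in both knockdowns, from 3473, 3332 and 2991 to 6117, 5664 and 5550 in siQKI (0.82, SE 0.07) and to 6212, 6494 and 5678 in siRBFOX2 (0.91, SE 0.07).

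Of 11 tested β-catenin target genes, 1 rose and 2 fell in siQKI, while 2 rose and 2 fell in siRBFOX2. These counts were near the shares over all genes (14.9% higher and 18.1% lower in siQKI, 12% and 14.5% in siRBFOX2). CCND1, which encodes cyclin D1, had 53426, 53611 and 55744 in siCtrl, 37481, 37788 and 36018 in siQKI and 27413, 25662 and 26132 in siRBFOX2. It fell in both (-0.55 and -1.04, SE 0.04 each), and it overlaps another expressed gene. LGR5, a Wnt-responsive receptor, had low counts of 101, 109 and 35.2 in siCtrl and of 279, 164 and 294 in siQKI (log2 fold change 1.69, SE 0.48, limma adjusted p = 0.0128). This call did not hold without siCtrl replicate 3 (1.17, adjusted p = 0.0677) or siQKI replicate 3 (1.54, adjusted p = 0.0526), or without the mean-variance trend (adjusted p = 0.0813). In siRBFOX2 it had 284, 484 and 137 (1.85, SE 0.48, limma adjusted p = 0.00930), which did not hold without siRBFOX2 replicate 2 (1.42, adjusted p = 0.0586) or without the trend (adjusted p = 0.0759), and it also overlaps another gene. AXIN2, a feedback inhibitor of the pathway, had 588, 578 and 394 in siCtrl and 961, 998 and 594 in siRBFOX2 (0.69, SE 0.21, limma adjusted p = 0.0241), and the call was lost without siCtrl replicate 3 (adjusted p = 0.120), siRBFOX2 replicate 1 (0.0997) or siRBFOX2 replicate 2 (0.109), and without the trend (0.105). SNAI1 was the repressor that fell in siRBFOX2, from 2830, 2716 and 2780 to 1602, 1488 and 1499 (-0.86, SE 0.08, limma adjusted p = 1.22e-06), which was lower than in siQKI.

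HPAF-II and PANC-1 were normalized in separate tables, so the lines were compared as values rescaled to a total of 1000000 per library, with no test, and line and batch cannot be told apart. Of the 8 members with a mean of at least 10 in either line, 4 were at least 2-fold higher and 2 at least 2-fold lower in HPAF-II. The 4 include CTNNA2, which passed this filter only through HPAF-II (mean normalized count 23.9, against 8.71 in siCtrl) and whose libraries overlapped. The 2 lower members, CDH2 and CDH11, passed it only through PANC-1. Over 24673 genes 27.2% were at least 2-fold higher, 25.2% at least 2-fold lower and 63.7% did not overlap. CDH1 was at 207, 220 and 162 in HPAF-II and at 2.94, 2.86 and 2.80 in PANC-1 siCtrl. It was 68.2-fold higher in HPAF-II (log2 ratio 6.09, SE 0.14). CDH3 was at 30.1, 31.7 and 26.2 against 1.26, 1.95 and 1.02, which is 20.7-fold higher (log2 ratio 4.37, SE 0.29).

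CDH2 and CDH11 were listed at 0 in all 3 HPAF-II libraries, against 39.2, 37.3 and 40.4 for CDH2 and 1.56, 1.37 and 1.21 for CDH11 in PANC-1 siCtrl. CDH4 and CTNND2 were also listed at 0 in HPAF-II. CDH1 and CDH3 were thus found in both lines, while CDH2 and CDH11 were above 0 only in the PANC-1 libraries, and no fold is given against a group at 0. In siQKI libraries CDH1 was at 9.08, 6.94 and 7.70 on the same scale, which is above siCtrl and far below HPAF-II, and CDH2 was at 51.0, 49.0 and 46.5, so the rise of CDH1 in siQKI came without a fall of CDH2.

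Among the catenins CTNND1 was at 626, 645 and 475 in HPAF-II against 185, 183 and 182 in PANC-1 siCtrl (3.18-fold, log2 ratio 1.67, SE 0.14). The third HPAF-II library was the lowest for CTNND1 and for CDH1. CTNNA1 went the other way, at 133, 124 and 126 against 231, 238 and 241 (log2 ratio -0.89, SE 0.04). CTNNB1 was at 171, 177 and 186 against 170, 177 and 187, so the lines overlapped almost completely (log2 ratio 0.00, SE 0.05), and its sign depended on the scaling. CTNNA2 was at 0.0794, 0 and 0.174 against 0.0593, 0 and 0.0175, which overlapped, and its 2.66-fold higher mean in HPAF-II was under 2-fold without siCtrl replicate 2 (log2 ratio 0.97) or HPAF-II replicate 3 (0.48). The log2 ratio of CTNND1 to CTNNA1 within a library was 2.24, 2.38 and 1.91 in HPAF-II and -0.33, -0.38 and -0.40 in siCtrl, a difference of 2.55 (SE 0.14, exact permutation p = 0.1, the smallest possible). With the exon lengths used above, the summed cadherins stood at 45.3 ± 6.73 per kb in HPAF-II against 9.81 ± 0.256 in PANC-1 siCtrl, and the catenins at 139 ± 12.7 against 109 ± 2.07.

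**Figure D4:**
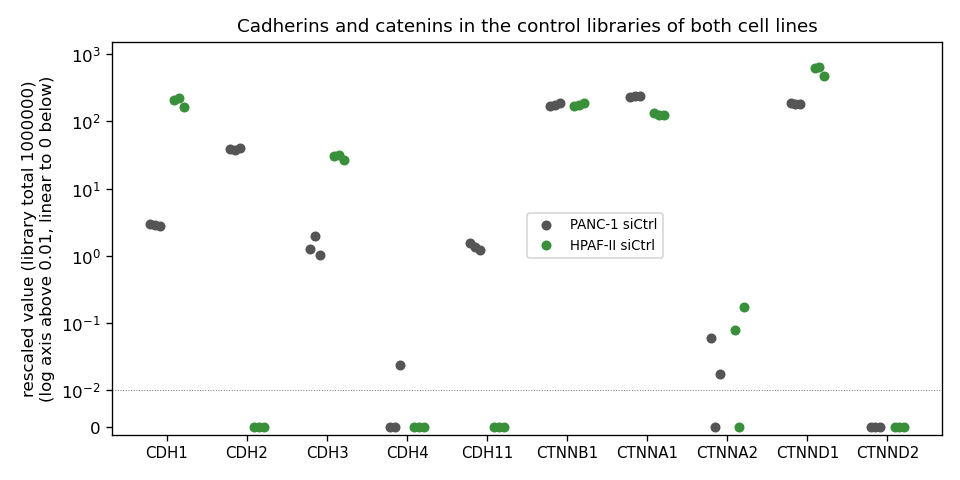
Rescaled values (library total 1000000; vertical axis, logarithmic above 0.01 and linear to 0 below the dotted line) of the 10 members in the 3 control libraries of PANC-1 and of HPAF-II. CDH1 and CDH3 lie higher in HPAF-II (CDH1 162 to 220 against 2.80 to 2.94), CDH2 and CDH11 lie at 0 in HPAF-II, and CTNNB1 overlaps between the lines.

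The gene lists also differed between the lines, and their counts are to be read against all genes compared. Of those, 27.2% were at least 2-fold higher and 25.2% at least 2-fold lower in HPAF-II. All 5 epithelial activators were at least 2-fold higher in HPAF-II, such as GRHL2, an activator of CDH1, at 32.2 ± 7.38 against 0.0341 ± 0.0339 on the rescaled scale and OVOL1, an epithelial transcription factor, at 14.02 ± 3.05 against 0.0344 ± 0.0249. Of 5 compared repressors 3 were at least 2-fold lower and 1 higher. ZEB1 was at 1.09 ± 0.330 against 28.7 ± 1.88, and SNAI2, which had fallen in siQKI, was at 1.93 ± 0.687 in HPAF-II against 0.634 ± 0.0873 in siCtrl. JUP was 7.38-fold higher in HPAF-II, at 765 ± 11.5 against 104 ± 5.72. NECTIN4, a nectin of epithelial cells, was at 19.7 ± 4.77 against 0.0375 ± 0.0149, NECTIN1 was at 11.4 ± 2.55 against 1.498 ± 0.359, and the actin regulator EVL was at 0.0123 ± 0.0107 against 15.4 ± 1.04, although EVL overlaps another gene. ACTN4 was 4.28-fold lower in HPAF-II. Among the other classical cadherins CDH12, which overlaps another gene, was at 2.78 ± 1.01 in HPAF-II against 0.00377 ± 0.00652, and CDH18 was at 0.0230 ± 0.0361 against 2.21 ± 0.0666. CDH9 was listed at 0 in siCtrl and stood at 0.715, 0.0479 and 0.0387 in HPAF-II, so 1 library carried its mean, and CDH15 was listed at 0 in HPAF-II against 0.747 ± 0.0317. Of 11 β-catenin targets 6 were at least 2-fold higher and 1 lower, with RNF43, a negative regulator of Wnt receptors, at 24.0 ± 4.35 against 2.34 ± 0.108 and LGR5 at 5.62 ± 1.27 against 0.238 ± 0.118. LEF1, a DNA-binding partner of β-catenin and the 1 lower target, was listed at 0 in HPAF-II against 1.75 ± 0.357. Of the list genes named here, CDH9 and CDH12 passed the filter on the mean only through HPAF-II. CDH15, CDH18, EVL and LEF1 passed it only through PANC-1. The filter thus set the direction of these genes.

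The genes whose log2 values followed a member most closely over the 9 PANC-1 libraries were found by Pearson's r, as a description over libraries that share 3 groups. For CDH1 they were PINK1, HOXA3 // HOXA5 (joined in 1 gene by the annotation) and CHD3, each with r = 0.99. For CDH2 they were SH3TC1, MSRB2 and LIMS2 (0.97 to 0.98), and for CDH3 they were TYSND1, SREBF1 and NDUFB2 (0.96 to 0.97). For CTNNB1 they were TIMMDC1, NOMO3 and NOMO2 (0.98 to 0.99), of which the NOMO genes are near-identical copies whose reads may be split. For CTNNA1 they were SESN2, PKN3 and TAP1 (each 0.98) and for CTNND1 RAPGEF1, MARCHF2 and FOXP4 (each 0.98). No other member was among the genes named.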

How the data were processed

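PolyA-selected, paired-end libraries were aligned to hg38 with STAR 2.7.5a per the labels' processing notes, which also name FastQC, Picard, SAMtools and DESeq2. The deposited signal values are gene counts of the FAST DB annotation that the authors divided by a size factor per library, separately for 9 PANC-1 and 3 HPAF-II libraries. Strand use in counting is not given in the sources used here. Values were whole multiples of 1 step per library, but most low values were multiples of 3, so no count model was used.

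The 3 PANC-1 groups went into 1 limma fit (version 3.58.1, R 4.3.3, mean-variance trend, no block) of log2(value + 1), for 22544 genes with a mean of at least 10. Benjamini-Hochberg adjustment was over all of them (threshold 0.05), and the procedure was tested on simulated data. Fold changes of low genes are understated by the pseudocount. Between lines, values were rescaled to 1000000 per library with a pseudocount of 0.01. The labels call the libraries biological replicates, with no record of separate cultures. Python 3.11.15 and scipy 1.17.1 were used for summaries and exact tests.

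The members and lists were chosen with earlier results of these data known. List genes are named where they passed with a mean of at least 50, a 1.5-fold change and libraries that did not overlap, or, between lines, as the 2 largest rises and falls of each list past 4-fold. The other list genes in the text (ZEB1, ZEB2, TCF3 and SNAI1 in siQKI, ESRP2, ACTN4, VASP, AJUBA, JUP and CTNNAL1 in PANC-1, and SNAI2 between lines) were chosen after their values were seen. The 3 genes most like each called member are also given.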

Additional observations from a re-analysis of the deposited data

How the results depend on the processing

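In siQKI against siCtrl 5 members passed, and 3 passed without the mean-variance trend and 2 with a fold change of at least 1.5 required. Leaving out 1 library gave 3 to 5, with 3 without siCtrl replicate 3. In siRBFOX2 against siCtrl 4 passed, and 2 passed without the trend, with only the groups compared or with an adjusted p under 0.01, and 1 with a fold change of at least 1.5. Leaving out 1 library gave 2 to 4, with 2 without siCtrl replicate 1 or siRBFOX2 replicate 1, and upper-quartile rescaling gave 6. In siQKI against siRBFOX2 3 passed, and 1 did with a fold change of at least 1.5. The causes were not tested. The calls of CDH1 in all 3 contrasts, of CDH2 in both knockdowns and of CTNNB1 in siQKI against siCtrl held under all 17 alternatives fitted.

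The sign of 3 log2 fold changes that did not pass turned when 1 library was left out. CDH11 in siRBFOX2 against siCtrl ranged from -0.298 to 0.232 (0.0455 without siCtrl replicate 1, 0.232 without siRBFOX2 replicate 1). In siQKI against siRBFOX2 CDH11 ranged from -0.0842 (without siRBFOX2 replicate 1) to 0.446, and CDH3 from -0.103 (without siRBFOX2 replicate 3) to 0.252. Between the lines the log2 ratio of CTNNB1 was -0.278 in the deposited values without rescaling, -0.0498 with upper-quartile and -0.124 with median-of-ratios rescaling. It ranged from -0.0327 to 0.0364 with 1 library left out and was below 0 without siCtrl replicate 1, siCtrl replicate 2 or HPAF-II replicate 3. The deposited values shift the median log2 ratio of all genes from 0.08 to -0.19. The count of members past 2-fold was 6, with CTNNA2 among them, and 4 to 7 under the alternatives.

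With a replicate block 5, 3 and 3 members passed in the 3 contrasts, where CTNNA1 in siRBFOX2 lost its call (adjusted p = 0.0739). Deviations of same-numbered libraries had correlations of -0.0325 to 0.0235, and those of other pairs -0.0333 to 0.0384. No shift shared by same-numbered libraries was thus seen. Whether they were handled together is not recorded, and these correlations cannot decide it. Without the filter 6, 3 and 4 members passed, with CTNND2 called in both contrasts of siQKI. All siCtrl and siRBFOX2 values of CTNND2 were 0, so only the siQKI libraries gave spread to those calls. Depth in fragments is unknown, so a value of 0 has no stated limit.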
